A study of Lactuca sativa with 36 samples.

Results

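The 6 genes described here are annotated with copper ion binding, the gene ontology term that also holds the laccases, among 19584 genes measured in Italian lettuce (Lactuca sativa). They are Lsat_1_v5_gn_7_12240, Lsat_1_v5_gn_9_42801, Lsat_1_v5_gn_4_30881, Lsat_1_v5_gn_9_73760, Lsat_1_v5_gn_8_13161 and Lsat_1_v5_gn_2_125601, and are called by their last digits below. All 6 were selected on their changes in roots under Cd. The study lists 7_12240, 9_42801, 4_30881 and 9_73760 for the step between day 0 and day 1, and 8_13161 and 2_125601 for the step between day 1 and day 5. Because these root changes chose the genes, they are described without a test. Tests are given for leaves, for roots against leaves and for melatonin averaged over the days, and the last of these draws on the same root libraries that chose the genes.

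RNA-seq libraries were made from 12 groups with 3 libraries each. RCdM0, RCdM1 and RCdM5 are roots of plants pretreated with 1 µmol/L melatonin and then given 50 µmol/L CdCl2, taken at 0, 1 and 5 days. RCd0, RCd1 and RCd5 are roots given the same CdCl2 with no melatonin. The methods count the days from the Cd treatment and the study calls day 0 the beginning, so day 0 groups show its start. LCdM0, LCdM1, LCdM5, LCd0, LCd1 and LCd5 are the leaves in the same order. The labels give 20 days of growth before Cd, except for replicate 2 of RCdM1 and of LCdM1, where they give 21 days. All 12 groups belong to a CdCl2 treatment and no group was kept without CdCl2 to day 1 or day 5, so that a change between days under Cd cannot be told apart from plant age or harvest day. The methods describe seedlings grown together in treatments repeated 3 times, and the labels do not say how many plants stand behind a library, so the p-values measure the spread between these libraries.

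Copper in plant proteins mostly serves to move electrons. Laccases are secreted multicopper oxidases that oxidise phenolics in the cell wall and take part in lignin formation, and other copper proteins include blue copper electron carriers, amine oxidases and ascorbate oxidase. Cell wall oxidation and lignin in roots are commonly studied in plants exposed to Cd, since the root is where the metal enters. Of the 6 genes, only 2_125601 is called a laccase by identifier in the text of the study. The annotation of the study also places 9_42801 and 9_73760 under oxidation-reduction, 4_30881 and 2_125601 under oxidoreductase activity and 8_13161 under metal ion binding, while 7_12240 carries a general metabolic term. No further role is assigned to them here, and their sequences and genome positions were not analysed here.

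Values are FPKM, read fragments scaled to transcript length and library size, which the authors computed for each isoform and which were added here per gene. FPKM removes transcript length, so levels can be set side by side between genes. The table holds no read counts, so counting error was not computed, and FPKM summed over all genes was 1259700 to 1426900 in the 18 root libraries and 1729600 to 2611800 in the 18 leaf libraries. The 44 photosynthesis genes listed by the study, used to check the tissue labels, summed to 780 to 3161 FPKM in roots and 155480 to 335540 FPKM in leaves, and 40 of the 44 were lower in every root library than in every leaf library. Among the day 5 roots, the libraries labelled replicate 3 stood apart from their groups in this sum, and each resembled the other treatment. It was 826 FPKM in RCdM5 replicate 3, against 1667 and 1844 in the other RCdM5 libraries, while in RCd5 replicate 3 it was 2470, against 988 and 834 in the other RCd5 libraries. The number of genes at 1 FPKM or more was likewise 16169 in RCdM5 replicate 3, against 16393 and 16512 in its group, and 16481 in RCd5 replicate 3, against 16150 and 16154 in its group. Whether the labels of these 2 libraries were exchanged was not tested, and the labels were kept, which bears on every day 5 root value and every averaged melatonin value. Several results that rest on these 2 libraries are therefore also given without them, a setting chosen after seeing the data.

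Each of the 6 genes had a higher mean level in roots than in leaves. The order of the mean root level was 9_42801 (344 FPKM), 7_12240 (137 FPKM), 9_73760 (68.3 FPKM), 4_30881 (28.6 FPKM), 8_13161 (12.6 FPKM) and 2_125601 (5.71 FPKM), each over 18 libraries. This order pools groups that differ, and on day 5 it was another: 8_13161 (29.6 FPKM) and 2_125601 (17.1 FPKM) were above 4_30881 (13.2 FPKM) in RCdM5, and 8_13161 (16.6 FPKM) was above 4_30881 (14.7 FPKM) in RCd5. In leaves the mean was 1.55 FPKM for 9_42801, 0.724 FPKM for 7_12240, 5.41 FPKM for 9_73760, 1.08 FPKM for 4_30881, 0.730 FPKM for 8_13161 and 0.0551 FPKM for 2_125601. Thus none of these genes averaged more than 5.41 FPKM in leaves. In roots 3.75% of the 18992 genes above 0 had a higher mean than 9_42801, and in leaves 81.7% of 18885 did. Not all were abundant in roots, where 52.1% of genes had a higher mean than 8_13161 and 67.5% than 2_125601.

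The difference between tissues was tested with limma on log2(FPKM + 1), with 1 mean per group and Benjamini-Hochberg adjustment over 18056 genes. An adjusted p below 0.05 counted as passing. Averaged over the 6 groups of each tissue, the root level exceeded the leaf level by 6.85 on this log2 scale for 9_42801 (SE 0.21, limma adjusted p = 9.8e-22), by 5.80 for 7_12240 (SE 0.18, adjusted p = 1.7e-21) and by 3.72 for 9_73760 (SE 0.29, adjusted p = 1.6e-12). It did so by 3.52 for 4_30881 (SE 0.12, adjusted p = 1.4e-20) and by 2.44 for 8_13161 (SE 0.14, adjusted p = 2.4e-15). For 2_125601 no test is given, because it was below 1 FPKM in every leaf library and reached the filter through the roots alone. The 5 other genes all passed, where 81.1% of all tested genes passed in either direction, so that passing is no distinction. The median difference was 3.72 over these 5 genes and 0.11 over all genes tested. All genes tested include genes that reached the filter in a single tissue, which the 5 do not. A gene picked for a change in roots has to be expressed there, so a higher root level was partly built into the choice. For 7_12240, 9_42801, 4_30881, 9_73760 and 2_125601 every root library lay above every leaf library. For 8_13161 this held for 13 of the 18 root libraries, because RCd0 and RCd1 were as low as some leaves. For 2_125601 the gap was narrow and at low values, with a lowest root library of 0.335 FPKM and a highest leaf library of 0.300 FPKM. The share of all genes without overlap between the tissues was not counted, so nothing is read from this list. In bulk tissue fewer cells of a type and less RNA per cell cannot be told apart.

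**Figure D1:**
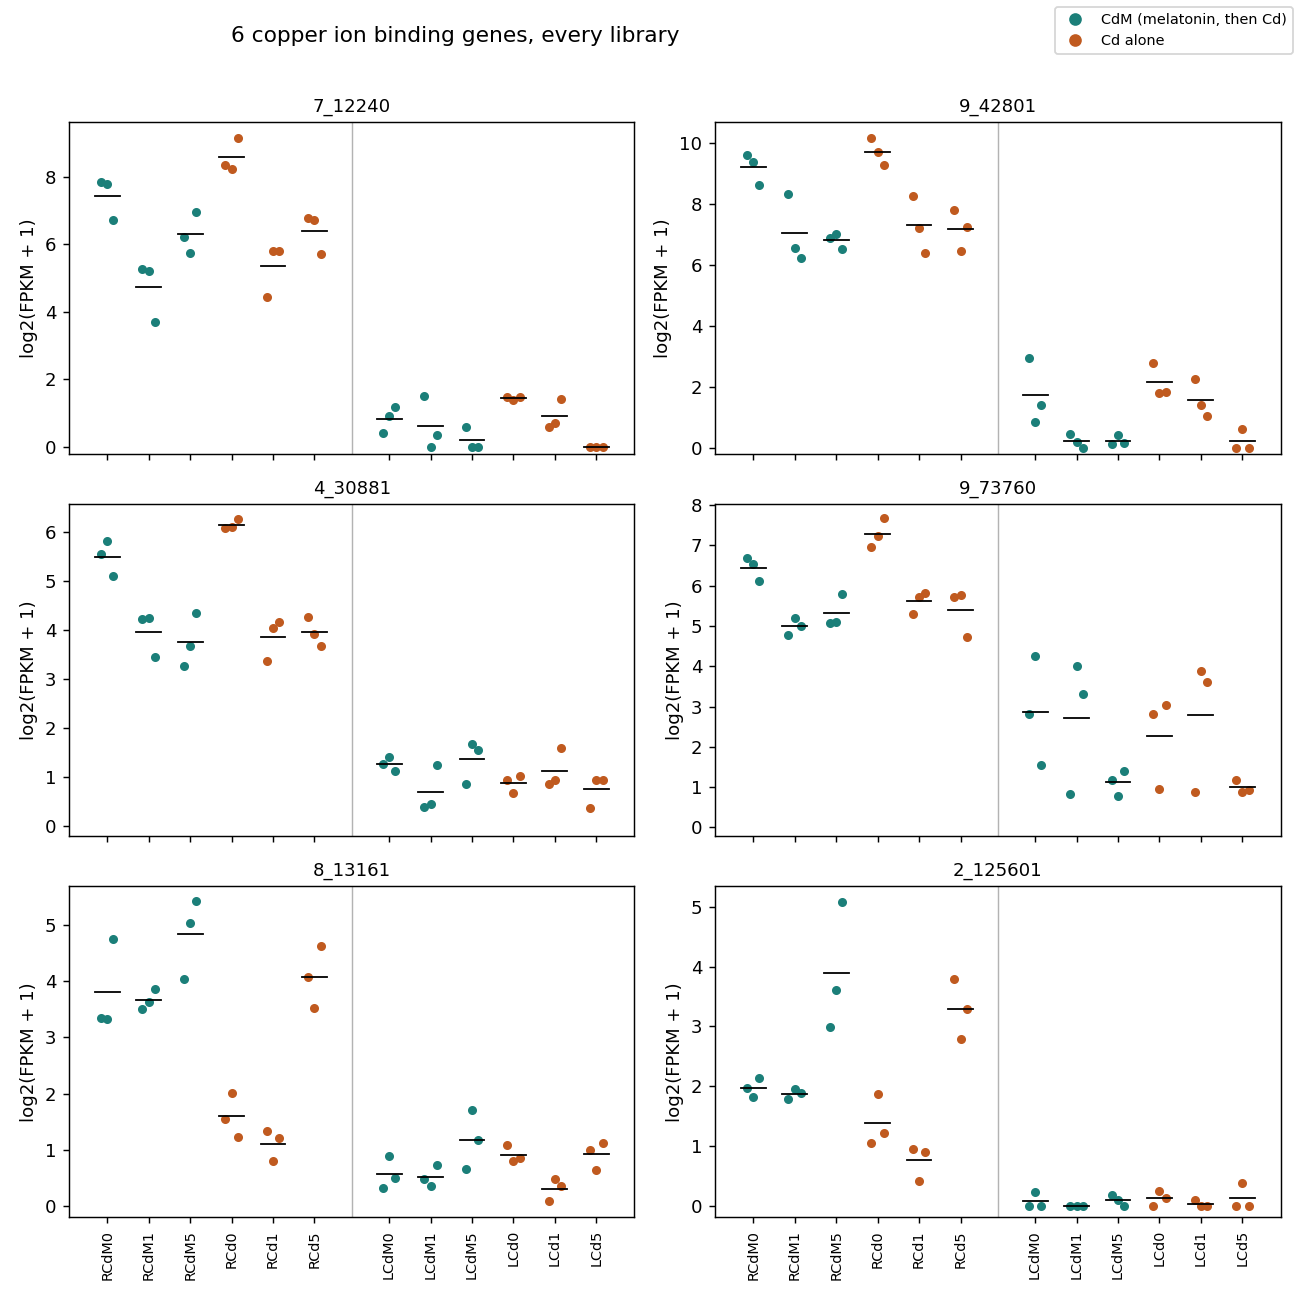
Level of the 6 genes in every library, as log2(FPKM + 1) on the vertical axis, by group on the horizontal axis (R root, L leaf, CdM with melatonin, Cd without, last digit the day). Points are single libraries and black lines their group means. The first 4 panels show high day 0 roots and the last 2 panels low RCd0 and RCd1 roots. Leaves (right of the grey line) lie low except for some libraries of 9_73760. These reach 18.1 FPKM, near its lowest root library of 25.5 FPKM.

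In the roots 4 of the genes shared a course in which day 0 was highest. The most abundant, 9_42801, had 764, 664 and 392 FPKM in RCdM0, 320.5, 91.8 and 72.8 FPKM in RCdM1 and 115, 128 and 91.1 FPKM in RCdM5. Without melatonin it had 1137, 825 and 609 FPKM in RCd0, 305, 147 and 82.8 FPKM in RCd1 and 218, 85.6 and 151 FPKM in RCd5. All 6 day 0 libraries of this oxidation-reduction gene were above the 12 later ones, while the day 1 and day 5 groups overlapped. On the log2(FPKM + 1) scale RCd1 minus RCd0 was -2.41 (SE 0.55) and RCdM1 minus RCdM0 was -2.17 (SE 0.55).

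The gene 7_12240 had the largest fall of the 6 between day 0 and day 1 in each treatment, and its day 5 means were above its day 1 means. It had 229, 217 and 103 FPKM in RCdM0, 37.4, 36.02 and 12.03 FPKM in RCdM1 and 73.0, 52.6 and 123 FPKM in RCdM5. Without melatonin it had 326, 299 and 566 FPKM in RCd0, 20.6, 55.2 and 55.2 FPKM in RCd1 and 108, 105 and 51.3 FPKM in RCd5. The group mean was 9.08 times lower in RCd1 than in RCd0 and 6.43 times lower in RCdM1 than in RCdM0. RCdM5 lay above RCdM1 in every library (difference 1.58, SE 0.52, log2 scale). RCd5 overlapped RCd1, since its replicate 3 was below 2 of the RCd1 libraries (difference 1.05, SE 0.52). Without replicate 3 of RCd5 and RCdM5, RCdM5 minus RCdM1 was 1.25 and RCd5 minus RCd1 was 1.40.

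The oxidoreductase gene 4_30881 had 45.6, 54.9 and 33.2 FPKM in RCdM0, 17.6, 17.8 and 9.83 FPKM in RCdM1 and 8.62, 11.8 and 19.2 FPKM in RCdM5. It had 66.9, 67.2 and 75.9 FPKM in RCd0, 9.26, 15.4 and 16.8 FPKM in RCd1 and 18.3, 14.0 and 11.7 FPKM in RCd5. Its RCd0 libraries were close together, at 70.0 ± 5.09 FPKM (SD, n = 3), and lay above all RCdM0 libraries. The later 4 groups, with means of 13.2 to 15.1 FPKM, all overlapped. The difference RCd1 minus RCd0 was -2.30 (SE 0.30) and RCdM1 minus RCdM0 was -1.52 (SE 0.30) on the log2 scale.

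The gene 9_73760, also placed under oxidation-reduction, had 102, 92.6 and 67.9 FPKM in RCdM0, 26.6, 35.6 and 30.8 FPKM in RCdM1 and 32.7, 33.3 and 54.6 FPKM in RCdM5. It had 123, 150.4 and 203 FPKM in RCd0, 38.3, 52.0 and 55.8 FPKM in RCd1 and 51.4, 53.5 and 25.5 FPKM in RCd5. As with 4_30881, RCd0 was above RCdM0 and RCdM0 above all later libraries, with no overlap. RCd1 minus RCd0 was -1.67 (SE 0.29) and RCdM1 minus RCdM0 was -1.46 (SE 0.29) on the log2 scale. RCd5 minus RCd1 was -0.21 (SE 0.29), and 0.12 without replicate 3 of RCd5 and RCdM5.

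The other 2 genes had another course, low in RCd0 and RCd1 and high on day 5. The metal ion binding gene 8_13161 had 9.17, 8.995 and 25.6 FPKM in RCdM0, 10.3, 11.4 and 13.4 FPKM in RCdM1 and 15.3, 31.8 and 41.6 FPKM in RCdM5. Without melatonin it had 1.94, 3.01 and 1.36 FPKM in RCd0, 1.51, 0.734 and 1.32 FPKM in RCd1 and 15.7, 10.53 and 23.5 FPKM in RCd5. Thus RCd0 and RCd1 stood apart at or under 3.01 FPKM, and the other 4 root groups at or over 8.995 FPKM. RCd5 minus RCd1 was 2.96 (SE 0.41) and RCdM5 minus RCdM1 was 1.16 (SE 0.41) on the log2 scale. Without replicate 3 of RCd5 and RCdM5 these were 2.68 and 0.87.

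The laccase gene 2_125601 had 2.92, 2.54 and 3.38 FPKM in RCdM0, 2.43, 2.87 and 2.71 FPKM in RCdM1 and 6.94, 11.2 and 33.1 FPKM in RCdM5. It had 1.08, 2.64 and 1.32 FPKM in RCd0, 0.929, 0.335 and 0.866 FPKM in RCd1 and 12.9, 5.92 and 8.76 FPKM in RCd5. The 6 day 5 libraries were the highest, and the RCd1 libraries the lowest of all. RCd5 minus RCd1 was 2.54 (SE 0.41) and RCdM5 minus RCdM1 was 2.02 (SE 0.41) on the log2 scale. The RCdM5 value depends on replicate 3, and RCdM5 minus RCdM1 was 1.42 without replicate 3 of RCdM5 and RCd5.

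**Figure D2:**
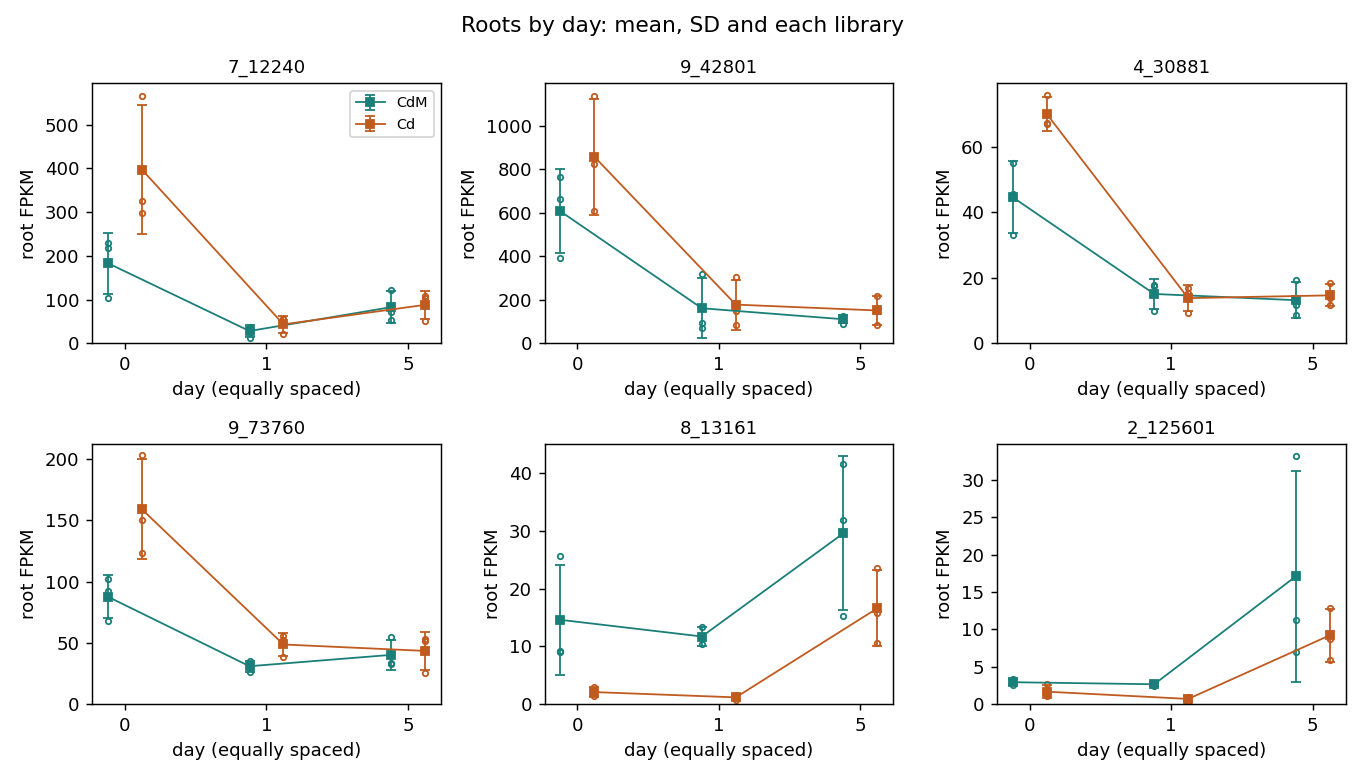
FPKM of each gene in roots (vertical axis, from 0) by day (horizontal axis, days drawn at equal spacing), with melatonin (CdM) and without (Cd). Squares are means of 3 libraries, bars the SD and open circles the libraries. In the upper panels and the lower left panel day 0 is highest, and for 8_13161 the Cd line lies under the CdM line on each day.

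Counted by library values that did not overlap between groups, 5 of the 6 genes were lower in RCd1 than in RCd0, all but 8_13161, where 15.1% of the 17227 root genes were lower in this way. Between RCdM1 and RCdM0 4 of the 6 were lower, against 13.1% of all genes. In RCd5 2 of the 6 were higher than in RCd1, namely 8_13161 and 2_125601, against 12% of all genes. In RCdM5 3 of the 6 were higher than in RCdM1, namely 7_12240, 8_13161 and 2_125601, against 11.8% of all genes. These contrasts chose the genes, so nothing is read from the counts.

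The 6 genes split in the same way when compared library by library. Over the 18 root libraries, on log2(FPKM + 1), Pearson's r between 4_30881 and 9_73760 was 0.921, and the 6 pairs among 7_12240, 9_42801, 4_30881 and 9_73760 ran from 0.695 to 0.921. Between 8_13161 and 2_125601 r was 0.861, with a Spearman rho of 0.924. The 8 pairs across the 2 courses ran from -0.470 (9_73760 and 8_13161) to 0.00096 (7_12240 and 2_125601). These correlations mix days and treatments, share libraries and are given as a description.

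Melatonin was compared with no melatonin by averaging CdM minus Cd over the 3 sampling days in roots, which leaves the changes between days out of the value. The average takes day 0, the start of the Cd treatment, together with day 1 and day 5. With melatonin, 8_13161 was higher in roots. Its range over 9 libraries was 8.995 to 41.6 FPKM (median 13.4) with melatonin and 0.734 to 23.5 FPKM (median 1.94) without. The groups overlapped only through day 5, as the lowest CdM library was above all 6 libraries of RCd0 and RCd1. The averaged difference was 1.84 (SE 0.24, limma adjusted p = 0.007), and it passed without any of the 18 root libraries in turn (1.68 to 1.97, adjusted p from 0.0025 to 0.029). Without replicate 3 of RCd5 and RCdM5 it was 1.83 (adjusted p = 0.00049). The study also lists this gene for melatonin in roots on day 1, and the RCd1 and RCd5 libraries that chose it enter the average, so the test is not independent of its choice.

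The laccase gene 2_125601 was also higher with melatonin, on thinner ground. It ranged from 2.43 to 33.1 FPKM (median 2.92) in CdM roots and from 0.335 to 12.9 FPKM (median 1.32) in Cd roots, and these ranges overlapped. The averaged difference was 0.77 (SE 0.24, limma adjusted p = 0.042, and 0.051 with a replicate block). It no longer passed when any of 13 of the 18 root libraries was left out (adjusted p from 0.052 to 0.089), and it still passed without RCd0 replicate 2, RCdM1 replicate 1, RCd5 replicate 3, RCdM5 replicate 1 or RCdM5 replicate 3 (adjusted p from 0.028 to 0.048). Without replicate 3 of both day 5 groups it was 0.57 (adjusted p = 0.032). The study names 2_125601 among laccases that were higher in these same roots with melatonin on each day, so the test is not independent of that list.

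In the same test the 4 genes that were highest on day 0 had negative differences that did not pass. The value was -0.62 for 7_12240 (SE 0.30, limma adjusted p = 0.17), -0.38 for 9_42801 (SE 0.32, adjusted p = 0.45) and -0.25 for 4_30881 (SE 0.17, adjusted p = 0.36). Without replicate 3 of both day 5 groups these were -0.85 for 7_12240 (adjusted p = 0.058), -0.31 for 9_42801 (0.57) and -0.39 for 4_30881 (0.11). For 9_73760 it was -0.52 (SE 0.17, adjusted p = 0.052). This gene passed as lower with melatonin without RCd0 replicate 1 (adjusted p = 0.046), RCd1 replicate 1 (0.048), RCd5 replicate 3 (0.0089) or RCdM5 replicate 3 (0.025), and without both day 5 libraries numbered 3 (-0.71, adjusted p = 0.0025). Thus 2 of the 6 genes passed, both higher, where 15.2% of the 17227 root genes passed in either direction. The study had already listed both for melatonin in these same roots, so nothing is read from this count. The median difference was -0.31 over the 6 genes and -0.01 over all root genes.

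By single days, described without a test because the day groups also chose the genes, the melatonin difference of 8_13161 was 2.20 on day 0, 2.55 on day 1 and 0.76 on day 5 (SE 0.41 each, log2 scale). For 2_125601 it was 0.60 on day 0, 1.12 on day 1 and 0.60 on day 5 (SE 0.41 each), and the day 5 value was 0.0034 without replicate 3 of both groups. On day 0 CdM roots were lower than Cd roots in every library for 7_12240, 4_30881 and 9_73760, as were 12.3% of the 17227 root genes. On day 5 the CdM and Cd roots overlapped for all 6 genes, as they did for most genes, since 3.37% were lower and 4.45% higher in CdM without overlap. For 7_12240, 4_30881 and 9_73760 this overlap came through replicate 3. In replicates 1 and 2, 7_12240 had 73.0 and 52.6 FPKM in RCdM5, against 108 and 105 FPKM in RCd5. For 4_30881 these were 8.62 and 11.8 FPKM against 18.3 and 14.0 FPKM, and for 9_73760 32.7 and 33.3 FPKM against 51.4 and 53.5 FPKM. The other genes overlapped in replicates 1 and 2 as well. Leaving out replicate 3 was chosen after seeing the data and leaves only 2 libraries in each group. The share of all genes was not counted in this setting, so nothing is read from these 3 genes. The sum of the 44 photosynthesis genes was also higher with melatonin on day 0. It was 2265, 2080 and 3161 FPKM in RCdM0, against 1257, 1072 and 1159 FPKM in RCd0, and its part in the day 0 differences was not tested. The leaf level of 8_13161 was at most 2.28 FPKM, below every CdM root library.

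In leaves the averaged melatonin difference passed for 0 of the 5 genes that reached the filter of at least 1 FPKM in at least 3 libraries, where 0.0179% of 16800 leaf genes passed in limma and 1 of the 5 had an unadjusted p under 0.05. This was 9_42801, at -0.58 (SE 0.26, adjusted p = 0.56). The gene 2_125601 was below the filter, listed at 0 in 11 of 18 leaf libraries and at no more than 0.300 FPKM in the others. By single days 0 of the 5 passed on day 0 (0 at an unadjusted p under 0.05), where 0.0238% of all leaf genes passed. On day 1 it was also 0 of the 5 (1 at an unadjusted p under 0.05), where 0% of all genes passed and 757 of them had an unadjusted p under 0.05. On day 5 it was again 0 of the 5 (0 unadjusted), where 0.0774% passed.

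The melatonin difference in roots was then compared with that in leaves directly. For 8_13161 the root difference exceeded the leaf difference by 1.79 (SE 0.28, limma adjusted p = 0.0026), with 1.84 in roots and 0.05 in leaves. This passed without any of the 36 libraries in turn. The root part is the value given above, so this test too is not independent of the choice of the gene. No such test is given for 2_125601, which was below the leaf filter. Thus 1 of the 5 genes measured in both tissues passed, where 3.49% of 18056 genes passed. The 18056 genes include genes that reached the filter in a single tissue, so this share is over a wider set.

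**Figure D3:**
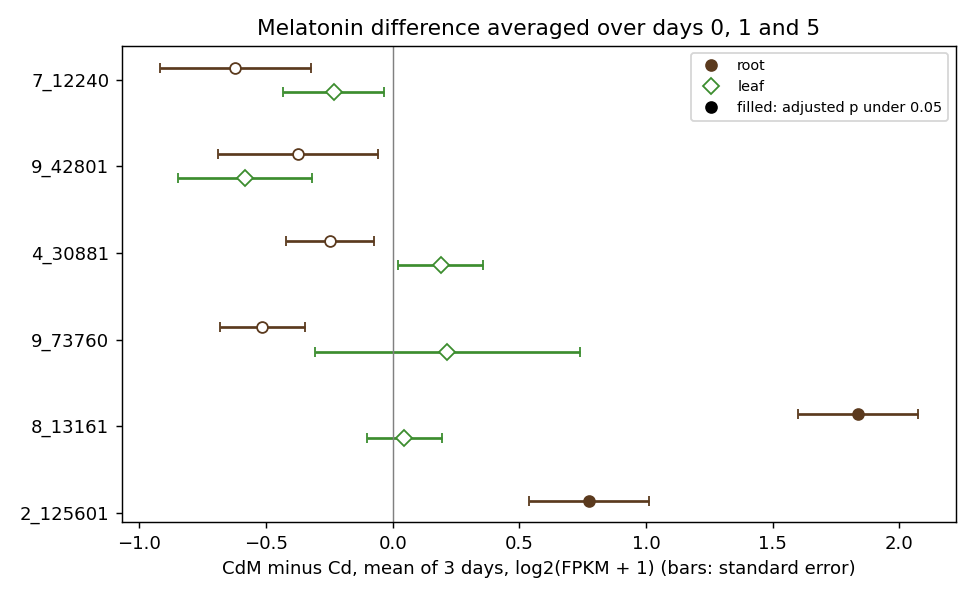
CdM minus Cd averaged over days 0, 1 and 5 on the log2(FPKM + 1) scale (horizontal axis), for each gene (vertical axis), in roots (circles) and leaves (diamonds), with bars of 1 standard error. Filled symbols passed at a limma adjusted p under 0.05. Only 8_13161 (1.84) and 2_125601 (0.77) in roots are filled, and 2_125601 has no leaf value because it was below the filter.

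In leaves the days could be tested, since leaf values did not choose the genes. From day 0 to day 5 under Cd, 7_12240 and 9_42801 fell, from levels that were already low. Of 7_12240 LCd5 was listed at 0 in all 3 libraries, against 1.79, 1.61 and 1.76 FPKM in LCd0 (difference -1.44, SE 0.34, limma adjusted p = 0.011). Of 9_42801 LCd5 had 0, 0.532 and 0 FPKM, against 5.88, 2.47 and 2.53 FPKM in LCd0 (difference -1.93, SE 0.45, adjusted p = 0.011). With so many values at 0 these differences depend on the pseudocount. The second call was lost without LCd0 replicate 1 (-1.60, adjusted p = 0.054) and with the most abundant isoform of 9_42801 in place of the sum (-0.87, adjusted p = 0.5). FPKM summed over all genes was also lower in LCd5 (1797100 to 2025400) than in LCd0 (2398000 to 2611800), and both calls held with libraries rescaled by their median ratio. Thus 2 of the 5 genes passed, both lower, where 16.6% of all leaf genes passed in either direction.

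With melatonin 1 of the 5 leaf genes fell between day 0 and day 5, where 22.9% of all leaf genes passed. It was 9_42801, with 0.0954, 0.327 and 0.103 FPKM in LCdM5, against 6.63, 0.768 and 1.61 FPKM in LCdM0 (difference -1.49, SE 0.45, limma adjusted p = 0.03). The call was lost without LCdM0 replicate 1 (-0.88, adjusted p = 0.12), LCdM5 replicate 1 (0.076) or LCdM5 replicate 3 (0.075). It was also lost with the most abundant isoform (-0.92, adjusted p = 0.43) and when LCdM5 and LCdM0 were fitted alone. For 7_12240 LCdM5 had 0.492, 0 and 0 FPKM, against 0.322, 0.873 and 1.28 FPKM in LCdM0 (adjusted p = 0.2). Whether the fall differed between LCdM and LCd was not tested.

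The shorter leaf steps gave 0 calls among the 5 genes. Under Cd this was so from day 0 to day 1 (1 gene at an unadjusted p under 0.05 in limma), where 2.95% of leaf genes passed, and from day 1 to day 5 (3 genes unadjusted), where 7.8% passed. With melatonin it was so from day 0 to day 1 (1 gene unadjusted), where 0.256% passed, and from day 1 to day 5 (2 genes unadjusted), where 12.2% passed. The leaf values of 9_73760 were scattered within groups, with 6.10, 18.1 and 1.93 FPKM in LCdM0 and 0.789, 14.96 and 8.91 FPKM in LCdM1, against 6.03, 0.927 and 7.24 FPKM in LCd0 and 0.855, 13.8 and 11.2 FPKM in LCd1. All day 5 leaves of this gene were at or under 1.62 FPKM. The leaf range was 0.290 to 2.16 FPKM for 4_30881 and 0.0634 to 2.28 FPKM for 8_13161.

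The isoforms behind the sums differed between the genes. For 9_42801 8 isoforms are listed. In roots the new isoforms 1 and 2 made up 48.6% and 48.0% of the summed FPKM, the reference transcript made up 2.46%, and 3 isoforms were at 0 in all 18 root libraries. The share of new isoform 1 was 39.3% to 58.5% in single root libraries. For 7_12240 the reference transcript made up 70.6% and new isoform 1 26.8% of the root sum. In RCdM5 replicate 3 the share of new isoform 1 of 7_12240 was 1.91%, against 29.9% and 24.1% in the other RCdM5 libraries, and in RCd1 replicate 1 this isoform was listed at 0. For 4_30881 new isoform 1 made up 99.7% of the root sum, and 9_73760, 8_13161 and 2_125601 have 1 listed isoform each, that of 2_125601 being new.

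**Figure D4:**
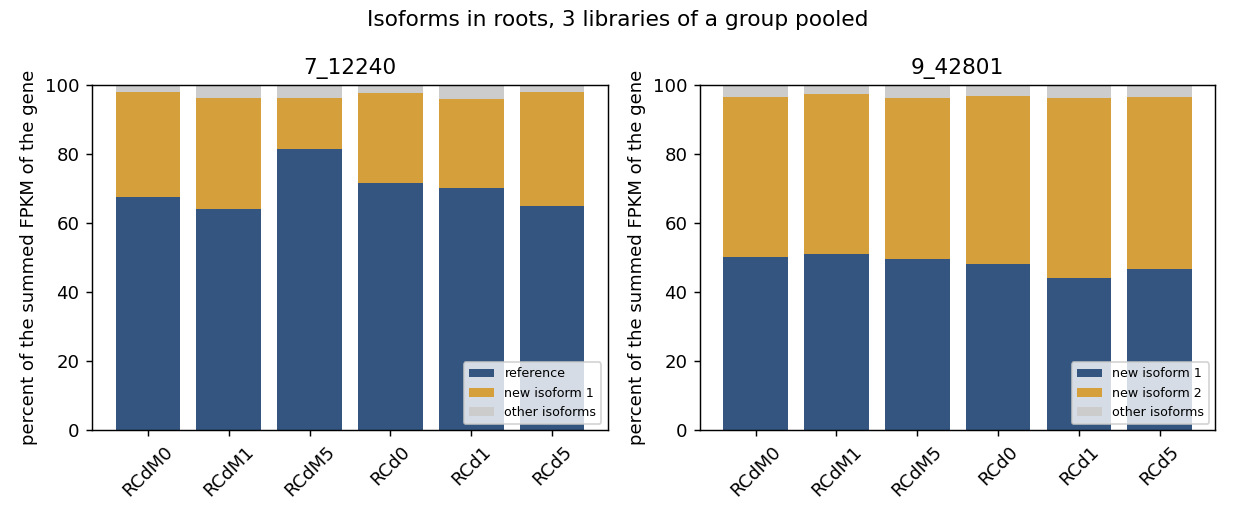
Percent of the summed root FPKM of 7_12240 (left) and 9_42801 (right) by isoform (vertical axis), for the 6 root groups (horizontal axis), with the 3 libraries of a group pooled. New isoform 1 of 9_42801 holds between 44.1% (RCd1) and 51.1% (RCdM1) of the sum, and the reference transcript of 7_12240 between 64.0% (RCdM1) and 81.4% (RCdM5).

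The genes most like each of the 6 were sought among 17221 root genes by Pearson's r on log2(FPKM + 1) over the 18 root libraries. None of the 3 closest genes of any of the 6 is under the copper ion binding term. The closest of 2_125601 was Lsat_1_v5_gn_8_71141 (r = 0.987), with mean values of 9.33, 6.76 and 48.5 FPKM in RCdM0, RCdM1 and RCdM5 and 5.17, 2.15 and 29.0 FPKM in RCd0, RCd1 and RCd5. The closest of 9_73760 was Lsat_1_v5_gn_9_83600 (r = 0.969), with 61.6, 13.5 and 26.3 FPKM in RCdM0, RCdM1 and RCdM5 and 167, 21.9 and 30.9 FPKM in RCd0, RCd1 and RCd5. For 4_30881 it was Lsat_1_v5_gn_9_84301 (r = 0.966), for 7_12240 Lsat_1_v5_gn_6_102220 (r = 0.965) and for 9_42801 Lsat_1_v5_gn_3_39820 (r = 0.947). For 8_13161 the closest was Lsat_1_v5_gn_2_37681, at a lower r of 0.909.

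The other 25 copper ion binding genes in the tables of the study were picked from these same libraries, so their directions are not independent evidence. In the root melatonin test 15.2% of all root genes passed in either direction. Of these 25 copper ion binding genes 10 were higher, 5 were lower and 10 did not pass, with a median difference of 0.37. The highest passing value was that of Lsat_1_v5_gn_6_116641 (99.5 FPKM in CdM roots and 13.6 FPKM in Cd roots, difference 3.33, SE 0.70, limma adjusted p = 0.017). The lowest were Lsat_1_v5_gn_9_34320 (247 and 414 FPKM, difference -0.74, SE 0.19, adjusted p = 0.025) and Lsat_1_v5_gn_8_144061 (25.9 and 42.2 FPKM, difference -0.72, SE 0.23, adjusted p = 0.048), each with the CdM mean given before the Cd mean. In roots against leaves 81.1% of all genes tested passed in either direction, including genes that reached the filter in a single tissue. Of the 25, 21 reached the filter in both tissues. Among these 13 were higher in roots than in leaves, 1 was lower and 7 did not pass, with a median difference of 1.58. The highest were Lsat_1_v5_gn_6_114941 (1242 FPKM in roots and 6.96 FPKM in leaves) and Lsat_1_v5_gn_9_34320 (331 FPKM in roots and 1.61 FPKM in leaves), and the lower one was Lsat_1_v5_gn_4_165041 (2.56 FPKM in roots and 6.95 FPKM in leaves).

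In leaves 21 of these 25 genes were tested. Between day 0 and day 5 0 rose and 3 fell under Cd, while 2 rose and 3 fell with melatonin. Of all leaf genes 16.6% passed under Cd and 22.9% with melatonin, in either direction. The largest fall in each was that of Lsat_1_v5_gn_6_2441, with a mean of 6.52 FPKM in LCdM5, against 37.6 FPKM in LCdM0, and of 6.67 FPKM in LCd5, against 35.6 FPKM in LCd0.

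The 5 other genes that the study calls laccases, which are among these 25, were set beside 2_125601. Their order changed with the group. In RCdM0 the mean was 11.8 FPKM for Lsat_1_v5_gn_9_36021, 6.09 FPKM for Lsat_1_v5_gn_8_71281, 5.36 FPKM for Lsat_1_v5_gn_3_76141 and 3.45 FPKM for Lsat_1_v5_gn_9_24581, all above the 2.94 FPKM of 2_125601, while Lsat_1_v5_gn_8_12380 had 1.82 FPKM. In RCdM5 2_125601 had the highest mean, 17.1 FPKM, to which replicate 3 contributed 33.1 FPKM. With melatonin 2 of these 5 were higher in roots, 9_36021 (7.32 FPKM in CdM roots and 1.84 FPKM in Cd roots, difference 1.37, SE 0.39, limma adjusted p = 0.034) and 8_71281 (difference 1.33, SE 0.22, adjusted p = 0.015). The study named 8_12380, 8_71281 and 9_36021 for higher levels in melatonin roots on days 0, 1 and 5. It named 3_76141 and 9_24581 for the same on days 0 and 1. A higher level with melatonin in these same roots was thus partly built into the list. Of all root genes 15.2% passed this test in either direction. The day 5 values of 9_36021 were 1.11, 10.6 and 0.144 FPKM in RCdM5, against 0.728, 1.70 and 5.78 FPKM in RCd5, so that replicate 3 of each group lay opposite to its replicate 2. In roots against leaves 0 of the 4 that reached the filter in both tissues passed in limma (0 at an unadjusted p under 0.05), with differences from -0.34 for 9_24581 to 0.47 for 9_36021. Of all genes tested between the tissues 81.1% passed in either direction.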

How the data were processed

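Illumina RNA-seq libraries of lettuce roots and leaves were analysed (36 libraries, 12 groups). According to the methods and labels, the authors aligned clean reads with TopHat2 2.0.12 and Bowtie2 to a transcriptome built from long reads and deposited FPKM per isoform. The submitters' processing notes name Bowtie2 2.0.6, and the sources used here do not say how isoform values were made. Read totals stated by the study were not used, and counting error was not computed, since the table holds no read counts.

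FPKM of the 59872 isoforms were added to 19584 genes. Genes reaching 1 FPKM in 3 or more libraries of a fit entered the test, as log2(FPKM + 1) with limma 3.58.1 (R 4.3.3; lmFit, contrasts.fit, eBayes with a trend) and Benjamini-Hochberg adjustment over all genes of the fit, with a threshold of 0.05. Fits used 18 root, 18 leaf or all 36 libraries with 1 mean per group. On simulated data with the root melatonin contrast over 17227 genes, 80 of 100 genes changed by 1 on the log2 scale and 97 of 100 changed by 2 were recovered, with 10 false calls. With leaf Cd day 0 to day 5 over 16800 genes, 53 and 83 of 100 were recovered, with 7 false calls. The changes were put only into genes with a mean above 3 on the log2(FPKM + 1) scale. The genes described here that were tested in leaves had leaf means of 0.66 to 2.13, and 2_125601 had a root mean of 2.19. The recovery was therefore not measured at these levels.

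The 6 genes and the lists were chosen with earlier results of these data known. Named besides them are the laccases named by the study, the 2 largest rises and falls of the other copper ion binding genes that passed, and the 3 genes most correlated with each of the 6. Lists were taken from complete entries of the tables of the study. Lists by reference gene description (root markers, other copper proteins) could not be made, since 0 identifiers matched the reference table. Alternatives were a pseudocount of 0.1, no filter, library scaling, the most abundant isoform, a replicate block, the compared groups alone, and each library left out.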

Additional observations from a re-analysis of the deposited data

Results flagged for a closer look

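For 8_13161 the difference between melatonin and no melatonin, averaged over 3 days, was larger in roots than in leaves by 1.79 on the log2(FPKM + 1) scale (SE 0.28, limma adjusted p = 0.0026). It is listed here because the test of the difference between the tissues passed. The root libraries that chose the gene enter this test, which is therefore not independent of that choice. The means were 18.6 FPKM in CdM roots and 6.63 FPKM in Cd roots, and 0.777 FPKM in CdM leaves and 0.683 FPKM in Cd leaves. No leaf library was above 2.28 FPKM, and the part of this low level in the result was not tested.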

How the results depend on the processing

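Outside the settings that leave out libraries one at a time, 71 of 77 counts of the 6 genes that passed stayed within 1.5 times their value. With a pseudocount of 0.1 the leaf Cd step from day 1 to day 5 gave 1 (9_42801) in place of 0, and RCd5 minus RCd1 was 3.68 for 8_13161 and 3.55 for 2_125601. With the most abundant isoform alone, leaf day 0 to day 5 gave 0 under Cd and 0 with melatonin, and RCd5 minus RCd1 of 9_42801 was 0.013, against -0.13. The compared groups alone also gave 0 for the melatonin leaves over that interval. Without replicate 3 of RCd5 and RCdM5, chosen after seeing the data, melatonin in roots minus leaves gave 2, of which 2_125601 was below the leaf filter, and RCd5 minus RCd1 of 9_73760 was 0.12. The cause of these shifts was not tested. Leaving out each library in turn gave 1 to 2 for leaf Cd day 0 to day 5, 0 to 1 for leaf CdM day 0 to day 5, 0 to 1 for leaf CdM day 1 to day 5, 1 to 3 for root melatonin and 1 to 2 for root minus leaf. Of the 17 log2 changes of the 6 genes that were followed in that way, 0 were reversed. These were the changes that passed, all root melatonin and root against leaf values, and root minus leaf of 2_125601. Other changes, among them most leaf changes and all root changes between days, were not counted.

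The replicate numbers did not pair the root libraries of different groups, since deviations of same-numbered root libraries had a median correlation of 0.003 (-0.41 to 0.35, 10 of 45 over 0.1). Root and leaf libraries of the same group and number were not compared in this way. The tests across tissues treated them as independent, and whether they came from the same plants was not tested. With a replicate block root melatonin gave 1 of the 6 genes, as 2_125601 had an adjusted p of 0.051, and no other count of the 6 genes changed.

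Counts over all genes moved by more than 1.5 times with the compared groups alone, to 56 in place of 496 (leaf Cd day 0 to day 1), 510 in place of 1311 (Cd day 1 to day 5), 1334 in place of 2793 (Cd day 0 to day 5), 10 in place of 43 (CdM day 0 to day 1), 137 in place of 2052 (CdM day 1 to day 5), 4 in place of 0 (leaf melatonin day 1) and 3 in place of 13 (leaf melatonin day 5). Leaf melatonin gave 4 in place of 13 on day 5 with a pseudocount of 0.1, 2 in place of 4 on day 0 with the most abundant isoform, and 5 in place of 3 over 3 days with the replicate block. Without replicate 3 of RCd5 and RCdM5, root melatonin gave 4291 in place of 2618 and root minus leaf 1836 in place of 631. Leaving out 1 library at a time, root melatonin gave 956 to 3855 and root minus leaf 270 to 1426. In leaves this gave 149 to 307 (Cd day 0 to day 1), 330 to 1199 (Cd day 1 to day 5), 1505 to 2819 (Cd day 0 to day 5), 4 to 28 (CdM day 0 to day 1), 645 to 2428 (CdM day 1 to day 5), 2435 to 3297 in place of 3846 (CdM day 0 to day 5), and, for melatonin, 2 to 4 on day 0, 4 to 60 on day 5 and 3 to 11 over 3 days. The precision of low leaf values is limited by 3 libraries a group.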
